A study of Mus musculus with 38 samples.

Results

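The genes described here are the mouse enzymes of xenobiotic metabolism, taken as every gene row whose name begins with Cyp2, Cyp3a, Ugt1a, Ugt2, Sult or one of the cytosolic glutathione S-transferase classes Gsta, Gstk, Gstm, Gsto, Gstp and Gstt, with pseudogene names left out. The rule took 126 of 46078 gene rows. Of these, 49 were Cyp2 genes, 8 belonged to the CYP20 to CYP27 families, 9 were Cyp3a, 9 Ugt1a, 10 Ugt2, 22 glutathione S-transferases (Gst) and 19 sulfotransferases (Sult). The CYP20 to CYP27 genes match the letters of the rule but act mainly on vitamin D, retinoids and sterols, and they are counted apart. RNA-seq was done on isolated intestinal epithelial cells of C57BL/6 mice in which hexokinase 2 (Hk2), an enzyme of the first step of glycolysis, had been deleted in the intestinal epithelium by a Cre recombinase driven by the Villin promoter (Hk2∆IEC, called KO here), and of littermates with the floxed allele and no deletion (Hk2fl/fl, called WT). Both genotypes therefore carried the floxed Hk2 allele on the same strain background. Mice were untreated (day 0) or had received 1.5% dextran sodium sulfate (DSS), which injures the colonic epithelium and causes colitis, for 3 or 7 days. The 38 libraries comprised 4 WT and 5 KO at day 0, 7 WT and 8 KO at day 3, and 7 WT and 7 KO at day 7. The DSS-treated mice were males of 10 to 12 weeks, housed together across genotypes. The labels give neither sex nor age for single mice at day 0, and mention ages of 9 to 11 weeks and of 86 to 92 weeks for the untreated phenotyping. The study's design text calls the material colon tissue.

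Xenobiotic metabolism runs in steps. Cytochromes P450 of the Cyp2 and Cyp3a subfamilies are membrane-bound monooxygenases that add oxygen to drugs, plant compounds, steroids and fatty acids. The product, or the compound itself, is then coupled to glucuronic acid by the Ugt enzymes, to sulfate by the Sult enzymes or to glutathione by the Gst enzymes, and is exported by transporters. The liver is the best known site of these reactions, and the intestinal epithelium is the first tissue to meet compounds from food and from bacteria. Transcription of these genes is known to depend on nuclear receptors such as PXR (Nr1i2) and CAR (Nr1i3), on the aryl hydrocarbon receptor, on NRF2 (Nfe2l2) and on HNF4A, a factor of gut and liver.

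Library totals ran from 10503352 to 60644284 counts over genes, and the members took 0.253% to 0.731% of them. Levels below are CPM, the counts of a gene relative to the library total, scaled by the trimmed mean of M-values (TMM) over the 38 libraries. Hk2 itself was at 254 to 449 CPM in WT and 33.1 to 118 CPM in KO libraries at day 0, at 97.0 to 221 CPM in WT libraries and 68.4 to 128 CPM in 7 of the 8 KO libraries at day 3, and at 228 to 611 CPM in WT and 56.1 to 268 CPM in KO libraries at day 7. The library labelled d3_KO_345 had 435 CPM of Hk2, above every WT library of that day, so its genotype label was not borne out. It stays in the KO ranges and means of day 3, and fits without it are given for the main KO results. The 10 epithelial markers (Epcam, Vil1 and others) summed to 12160 to 24760 CPM over all groups. Libraries of day 0 carry another run of library identifiers in the file headers than those of days 3 and 7, so day 0 and this series of libraries cannot be told apart. Xist was above 1 CPM in 2 of 4 WT and 1 of 5 KO libraries at day 0 and in none of the 29 later ones. Other libraries stood apart without going against a label: d3_WT_381 had the highest colonocyte markers of its day and genotype, d7_KO_420 the highest neutrophil markers of the series (1611 CPM), and d0_KO_32 the lowest goblet cell markers of day 0 (8562 CPM). TMM factors ran from 0.487 (d0_KO_32) to 1.18 (d3_WT_486), with 0.682 for d3_WT_381. A factor below 1 raises every CPM of its library.

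The members differed widely in level. A count of 0 was found in every library for 24 rows, a further 33 rows had counts but passed the low-count filter of no comparison (0.105 CPM or less on average), and 69 were tested at least once, 55 of them in all 11 comparisons. A mean of at least 1 CPM over all libraries was reached by 51 members, at least 10 CPM by 39 and at least 100 CPM by 13. Cyp2c55, an enzyme known to oxidise arachidonic acid, alone took 32% of the members' summed CPM. Together with Ugt2b34, Sult1d1, Gsto1 and Sult1a1 it made up 61.8%, and 11 members made up 79.8%. Per kilobase of exon, the highest mean levels in each family were 867 CPM per kb for Cyp2c55, 36.2 for Cyp3a13, 43.3 for Ugt1a7c, 124 for Ugt2b34, 193 for Gstp1 and 198 for Sult1a1. In mean CPM over all libraries the leading members of the 6 families were Cyp2c55, Cyp3a13, Ugt1a7c, Ugt2b34, Gsto1 and Sult1d1. The leading member was not determined for each group apart. Other members high per kilobase were Gsto1 (191 CPM per kb), Sult1d1 (164), Cyp2c65 (115), Gstm1 (91.2), Cyp2d34 (77.8), Gstk1 (68.4) and Sult1b1 (59.7), while Cyp3a25 (0.705) and Cyp3a44 (0.512) stood far below Cyp3a13. The 9 Ugt1a genes share their last exons, and 50.3% to 82.7% of the exon bases of the 3 named ones (Ugt1a1, Ugt1a6a, Ugt1a7c) overlap another gene, where the counting assigns no read pair that fits more than 1 gene, so their levels are understated.

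The Cyp2c genes lie on chromosome 19, all but Cyp2c44 in a row, and hold both members that rose and members that fell during DSS. Of 15 Cyp2c genes, 5 were tested in every comparison and 4 had no counts. In the files' coordinates (GRCm38), Cyp2c55 (39007019 to 39042693, plus strand), Cyp2c65 (39061015 to 39093944, plus strand) and Cyp2c66 (39113898 to 39187072, plus strand) follow each other at gaps of 18.3 and 20 kb. Cyp2c68 (39688834 to 39741054, minus strand) and Cyp2c69 (39842660 to 39886769, minus strand) lie 502 kb further on, with 4 other Cyp2c genes in between. The RefSeq promoters of these 5 genes (GRCm38.p6, 250 bases before to 50 after the start, printed 5′ to 3′ on the gene's strand) are shown because Cyp2c65 and Cyp2c66 rose, Cyp2c68 and Cyp2c69 fell and Cyp2c55 did neither between day 3 and day 7. Capitals mark CAAAGT, a core of HNF4A-like sites, searched on both strands. They span chr19:39006769-39007068 for Cyp2c55, chr19:39060756-39061055 for Cyp2c65, chr19:39113648-39113947 for Cyp2c66, chr19:39741052-39741351 for Cyp2c68 and chr19:39886720-39887019 for Cyp2c69.
Cyp2c55: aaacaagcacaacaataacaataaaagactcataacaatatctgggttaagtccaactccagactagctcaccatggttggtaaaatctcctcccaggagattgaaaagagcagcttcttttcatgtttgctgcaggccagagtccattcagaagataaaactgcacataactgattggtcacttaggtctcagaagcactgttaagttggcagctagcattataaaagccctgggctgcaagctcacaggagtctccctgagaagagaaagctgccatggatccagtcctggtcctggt
Cyp2c65: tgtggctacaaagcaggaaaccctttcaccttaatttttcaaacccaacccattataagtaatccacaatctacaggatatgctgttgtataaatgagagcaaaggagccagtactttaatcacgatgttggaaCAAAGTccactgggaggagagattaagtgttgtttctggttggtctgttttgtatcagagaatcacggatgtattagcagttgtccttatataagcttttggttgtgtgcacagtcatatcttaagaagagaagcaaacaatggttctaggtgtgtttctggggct
Cyp2c66: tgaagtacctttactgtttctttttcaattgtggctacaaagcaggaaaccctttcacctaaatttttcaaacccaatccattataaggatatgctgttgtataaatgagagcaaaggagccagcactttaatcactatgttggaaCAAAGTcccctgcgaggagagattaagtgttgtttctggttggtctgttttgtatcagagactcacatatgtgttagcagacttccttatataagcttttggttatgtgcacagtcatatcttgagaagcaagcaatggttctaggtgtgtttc
Cyp2c68: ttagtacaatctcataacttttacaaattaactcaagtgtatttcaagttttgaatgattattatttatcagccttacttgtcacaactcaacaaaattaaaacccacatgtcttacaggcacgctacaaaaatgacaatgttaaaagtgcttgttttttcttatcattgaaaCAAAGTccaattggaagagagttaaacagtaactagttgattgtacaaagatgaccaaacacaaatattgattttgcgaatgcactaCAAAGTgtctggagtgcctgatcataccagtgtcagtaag
Cyp2c69: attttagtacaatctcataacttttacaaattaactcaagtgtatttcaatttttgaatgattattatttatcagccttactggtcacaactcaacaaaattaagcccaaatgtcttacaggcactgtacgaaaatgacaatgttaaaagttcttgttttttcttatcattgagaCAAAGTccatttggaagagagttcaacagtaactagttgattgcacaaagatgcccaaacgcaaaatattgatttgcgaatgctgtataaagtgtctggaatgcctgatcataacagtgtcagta
The promoters of Cyp2c65 and Cyp2c66 matched at 87.4% of 293 aligned positions and those of Cyp2c68 and Cyp2c69 at 92.6% of 299. CAAAGT was found 1 time each in Cyp2c65, Cyp2c66 and Cyp2c69, 2 times in Cyp2c68 and not in Cyp2c55. It was found in genes that rose and in genes that fell. Over all 32851 RefSeq mouse promoters of this length, 14.4% held it, against 32.9% of the 70 promoters matched to 59 of the 69 tested members. GCGTG, the core bound by the aryl hydrocarbon receptor, was in 32.4% of all and 24.3% of member promoters, and the antioxidant response core (TGAC, 3 of any base, GC) in 12.4% and 8.57%. A pair of AGTTCA motifs spaced by 3 or 4 bases, as PXR binds, was in 0.0122% of all promoters and in none of the 70. The 70 promoters are not independent, since some genes have more than 1 and many belong to close paralogues, such as the Cyp2c, Cyp3a and Gstm genes. The difference in shares was not tested. These are matches of letters in a 300-base window and no measure of binding.

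Between day 3 and day 7 of DSS, members moved in both directions and largely alike in the genotypes. In WT cells 22 of 56 tested members passed an adjusted p of 0.05 (edgeR quasi-likelihood test, Benjamini-Hochberg over all genes tested), 8 higher and 14 lower at day 7. Of all genes tested in that comparison 19.3% passed, 10.6% as higher and 8.7% as lower. In KO cells 24 of 58 members passed, 7 higher and 17 lower, beside 19.3% of all genes, 10.5% higher and 8.83% lower, and the counts were the same without the library labelled d3_KO_345. The members' median log2 fold change was -0.09 in WT and -0.19 in KO cells, beside 0.01 and -0.01 over all genes tested. Changes in both genotypes were found for 17 members, each in the same direction: Cyp2c65, Cyp2c66, Cyp2d26, Cyp2j6 and Ugt1a1 rose, and Cyp2c68, Cyp2c69, Cyp2d12, Cyp2d22, Cyp2f2, Cyp2r1, Gstm2, Gstm6, Gstm7, Gsto2, Gstt1 and Gstt3 fell. These 17 were 77.3% of the members that passed in WT cells and 70.8% of those in KO cells. By family, Cyp2 members passed 11 of 19 times in WT cells (4 higher, 7 lower) and Gst members 7 of 18 (1 higher, 6 lower), while none of 7 Sult members did. In KO cells 12 of 20 Cyp2 members passed (4 higher, 8 lower), 8 of 18 Gst members, all lower, and 2 of 7 Sult members (1 higher, 1 lower); differences between families were not tested.

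The steepest decline was that of Cyp2f2 (chromosome 7, 27119909 to 27133660), a P450 best known from the airway epithelium, where it activates naphthalene. In WT cells it was at 7.12, 19.7 and 29.3 CPM (lowest, median and highest library) at day 3 and at 0.194, 1.28 and 3.71 CPM at day 7 (log2 fold change -3.20 ± 0.51 SE, edgeR adjusted p = 0.000509). In KO cells it went from 4.99, 12.5 and 31.1 CPM to 0.266, 0.362 and 0.492 CPM (log2 fold change -5.31 ± 0.42 SE, edgeR adjusted p = 3.87e-06). Every day 7 library was below every day 3 library of its genotype, and the 7 KO libraries of day 7 lay within a narrow band while the WT ones spread widely, with d7_WT_419 lowest of all. Counting ignored strand, and 13.5% of the exon bases of Cyp2f2 overlap an opposite-strand gene. Read pairs that fit both genes are assigned to neither, so the level of Cyp2f2 may be understated.

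Cyp2c68 stood at 55.8, 73.9 and 125 CPM in WT cells at day 3 and at 4.12, 13.4 and 38.6 CPM at day 7 (log2 fold change -2.16 ± 0.47 SE, edgeR adjusted p = 0.00468). Its levels in KO cells were 25.4, 59.1 and 98.0 CPM at day 3 and 4.21, 6.60 and 11.5 CPM at day 7 (log2 fold change -3.05 ± 0.30 SE, edgeR adjusted p = 1.42e-05). No library of day 7 reached the lowest one of day 3 in either genotype. Cyp2c69, from the same row of Cyp2c genes, was lower throughout, at 2.14, 8.39 and 11.6 CPM in WT cells at day 3 and 0.302, 1.42 and 5.13 CPM at day 7 (log2 fold change -2.10 ± 0.54 SE, edgeR adjusted p = 0.0129). For KO cells the values of Cyp2c69 were 1.52, 5.22 and 10.5 CPM and then 0.164, 0.561 and 0.751 CPM (log2 fold change -3.34 ± 0.41 SE, edgeR adjusted p = 4.89e-05). The WT groups of Cyp2c69 overlapped through d3_WT_346, the lowest of its day, and the KO groups did not.

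Cyp2d12 (chromosome 15, 82555108 to 82559413) is a member of the Cyp2d subfamily and also fell. Its WT libraries were at 8.55, 13.6 and 30.5 CPM at day 3 and at 2.19, 4.83 and 12.0 CPM at day 7 (log2 fold change -1.50 ± 0.37 SE, edgeR adjusted p = 0.0108). Its KO libraries were at 5.49, 15.8 and 33.1 CPM at day 3 and at 0.588, 1.27 and 3.05 CPM at day 7 (log2 fold change -3.49 ± 0.41 SE, edgeR adjusted p = 3.99e-05). WT groups overlapped and KO groups did not. The Cyp2c and Cyp2d genes lie among close paralogues, and the counting command has no option for read pairs that map to more than 1 place, so how far such pairs shift these levels was not tested.

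Gstt1, a theta-class transferase known for conjugating small halogenated compounds, also fell. It was at 24.1, 25.5 and 26.7 CPM in WT cells at day 3 and at 6.98, 11.2 and 16.4 CPM at day 7 (log2 fold change -1.24 ± 0.17 SE, edgeR adjusted p = 0.000174). In KO cells it was at 15.3, 18.6 and 24.6 CPM and then at 6.29, 9.78 and 14.2 CPM (log2 fold change -0.98 ± 0.18 SE, edgeR adjusted p = 0.00109). The days did not overlap in either genotype. For Cyp2f2, Cyp2c68, Cyp2c69, Cyp2d12 and Gstt1 the lowest KO value of day 3 was that of the library labelled d3_KO_345. Without it their KO log2 fold changes were -5.44, -3.17, -3.49, -3.63 and -1.03, and each passed. The other Gst genes that fell in both genotypes moved less: Gstm2, Gstm6, Gstm7, Gsto2 and Gstt3 had log2 fold changes between -0.95 and -0.28. Cyp2d22, also among the 17, fell by 0.65 in WT and 0.85 in KO cells on the log2 scale. It no longer passed when any 1 of 7 WT libraries (d3_WT_352, d3_WT_353, d3_WT_486, d3_WT_487, d7_WT_356, d7_WT_361 and d7_WT_419) or of 9 KO libraries (d3_KO_349, d3_KO_350, d3_KO_351, d3_KO_385, d3_KO_392, d7_KO_366, d7_KO_367, d7_KO_368 and d7_KO_423) was left out, with edgeR adjusted p of at most 0.0636 in WT and 0.0706 in KO cells.

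**Figure D1:**
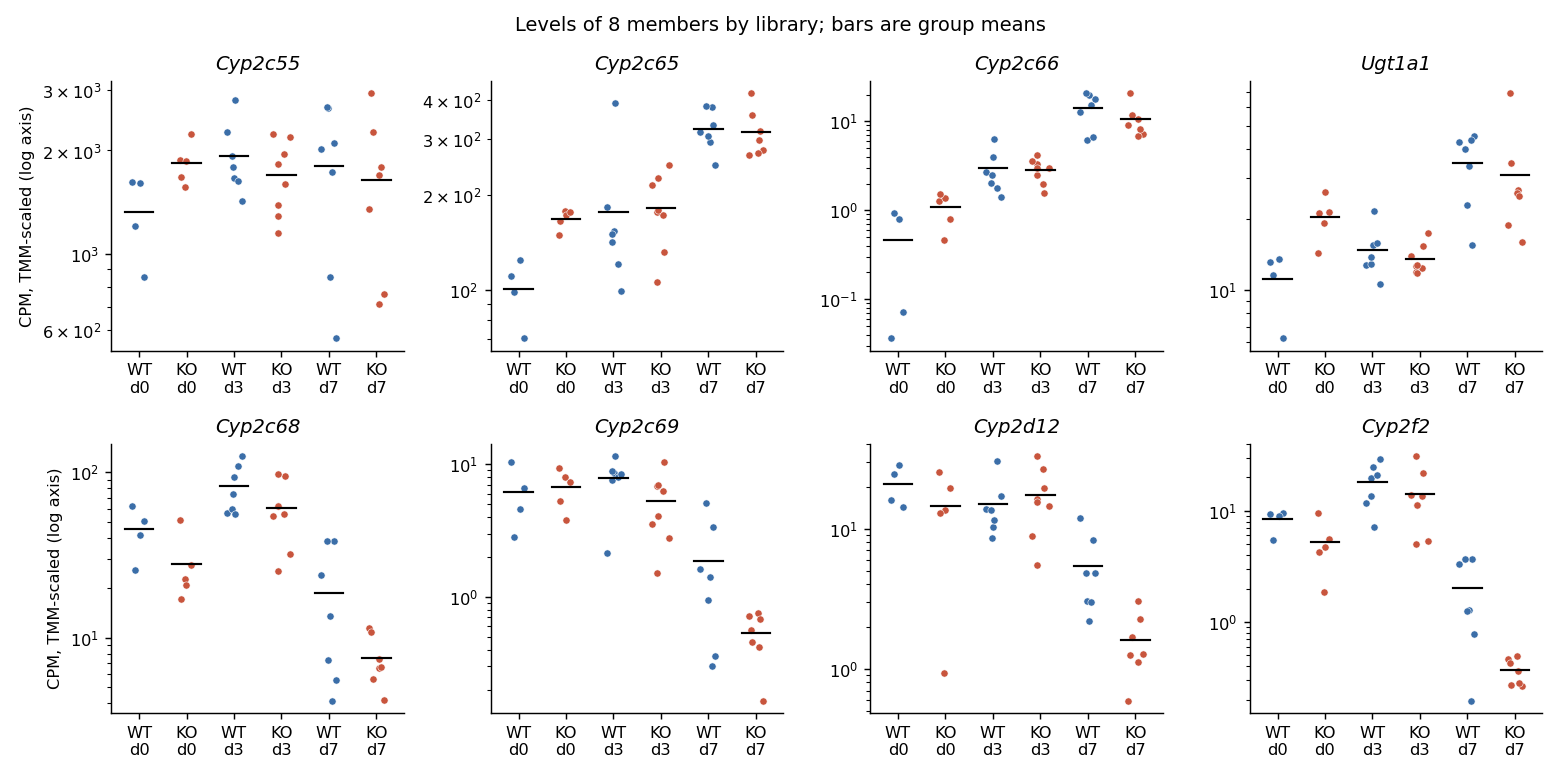
Levels of 8 members in each of the 38 libraries, as TMM-scaled CPM on a log axis. Each point is a library (WT blue, KO red; d0, d3 and d7 are days of DSS), bars are group means, and the 1 library with no Cyp2c66 count is drawn below the lowest value above 0. Cyp2c55 had group means of 1321 to 1931 CPM, Cyp2c65, Cyp2c66 and Ugt1a1 were higher at day 7, and the 4 genes of the lower row were lower at day 7.

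Among the members that rose, Cyp2c66 moved furthest. It was at 1.43, 2.52 and 6.30 CPM in WT cells at day 3 and at 6.24, 15.4 and 20.7 CPM at day 7 (log2 fold change 2.26 ± 0.35 SE, edgeR adjusted p = 0.000427). In KO cells it went from 1.55, 2.96 and 4.18 CPM to 6.91, 9.13 and 20.6 CPM (log2 fold change 1.84 ± 0.25 SE, edgeR adjusted p = 0.0001). The WT groups met at 1 library each, d3_WT_381 and d7_WT_370, and the KO groups stayed apart. Cyp2c65 was far more abundant, at 115 against 3.04 CPM per kb over all libraries. It was at 99.2, 150 and 389 CPM in WT cells at day 3 and at 248, 315 and 383 CPM at day 7 (log2 fold change 0.85 ± 0.25 SE, edgeR adjusted p = 0.0236). KO cells had 106, 177 and 248.7 CPM at day 3 and 268, 298 and 418.7 CPM at day 7 (log2 fold change 0.75 ± 0.16 SE, edgeR adjusted p = 0.003). In each genotype the day 7 libraries lay above the day 3 ones, except that d3_WT_381 was above all 7 WT libraries of day 7. Without it the WT log2 fold change of Cyp2c65 was 1.16 (edgeR adjusted p = 6.98e-05), and without d3_WT_348, d3_WT_352 or d3_WT_486 the adjusted p rose to at most 0.0523.

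Ugt1a1, the enzyme that conjugates bilirubin, was at 10.7, 13.9 and 21.8 CPM in WT cells at day 3 and at 15.6, 39.8 and 45.1 CPM at day 7 (log2 fold change 1.21 ± 0.22 SE, edgeR adjusted p = 0.00121). KO cells had 11.8, 12.7 and 17.5 CPM and then 16.0, 26 and 68.9 CPM (log2 fold change 1.14 ± 0.24 SE, edgeR adjusted p = 0.00297). The libraries d7_WT_386 and d7_KO_368 lay within the day 3 range of their genotype and the other day 7 libraries above it, with d7_KO_420 far above the rest, and without that library the KO log2 fold change was 0.82 (edgeR adjusted p = 0.0011). Ugt1a7c and Ugt1a6a, which use the same last exons, did not pass in either genotype. Cyp2d26 rose from a mean of 20.95 ± 3.48 CPM (SD, n = 7) to 42.9 ± 15.5 CPM (SD, n = 7) in WT and from 17.8 ± 3.47 CPM (SD, n = 8) to 37.1 ± 12.8 CPM (SD, n = 7) in KO cells, a log2 fold change of 1.01 in each. Cyp2j6, of a subfamily that oxidises arachidonic acid, rose by 0.62 ± 0.15 (SE) in WT and 0.55 ± 0.09 (SE) in KO cells on the log2 scale, from means of 86.8 and 81.4 CPM. The 5 members that rose in both genotypes were all P450s of the Cyp2 family or Ugt1a1, and none was a Gst or Sult gene. Without the library labelled d3_KO_345 their KO log2 fold changes were 1.815 (Cyp2c66), 0.74 (Cyp2c65), 1.12 (Ugt1a1), 0.94 (Cyp2d26) and 0.56 (Cyp2j6), and each passed.

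**Figure D2:**
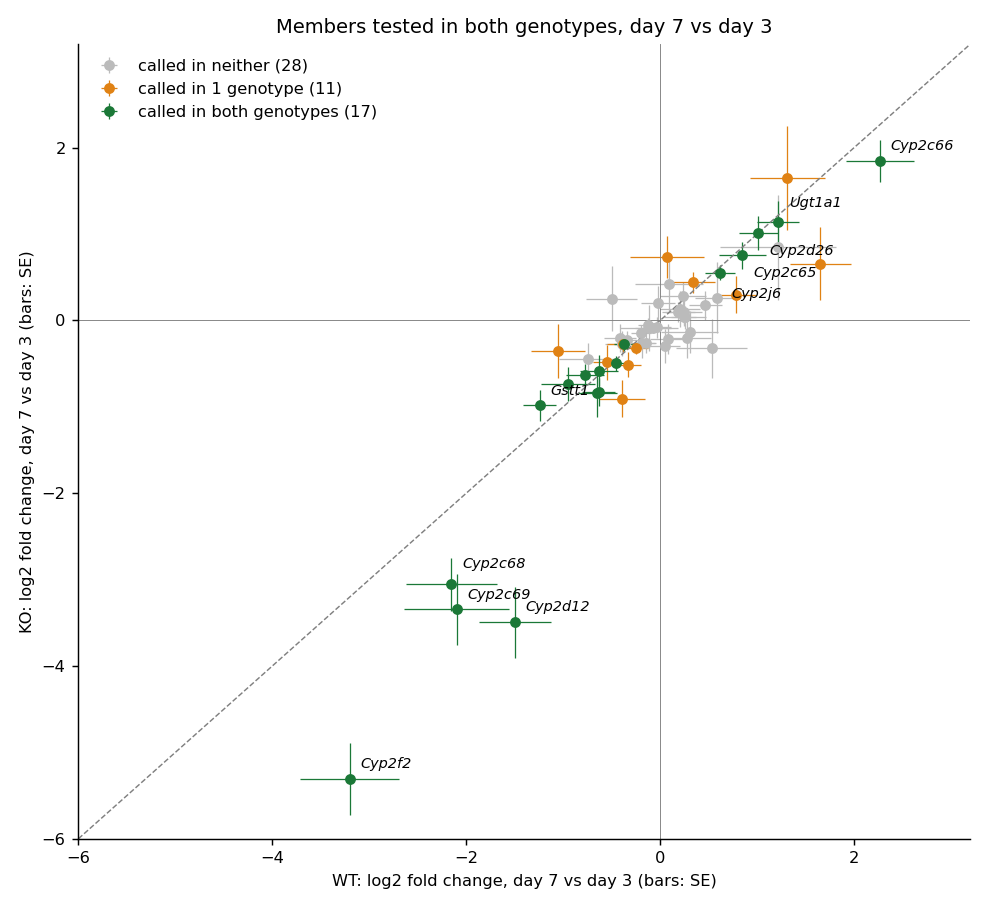
Log2 fold change between day 7 and day 3 in WT (horizontal) and KO (vertical) cells for the 56 members tested in both, with SE bars; the dashed line marks equal change. Green points passed in both genotypes (17), orange in 1 (11) and grey in neither (28); Cyp2f2, Cyp2d12, Cyp2c69 and Cyp2c68 lie below the line at the lower left, and Cyp2c66 is furthest to the upper right.

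A smaller number of members passed in 1 genotype only, which does not show that the genotypes differ. Gsta1, an alpha-class transferase that acts on products of lipid peroxidation, was at 7.76, 10.1 and 25.7 CPM in WT cells at day 3 and at 11.3, 36.7 and 58.1 CPM at day 7 (log2 fold change 1.65 ± 0.32 SE, edgeR adjusted p = 0.00202). In KO cells it was at 3.91, 15.1 and 27.3 CPM and then at 12.7, 16.8 and 76.3 CPM (log2 fold change 0.66 ± 0.42 SE, edgeR adjusted p = 0.323). The KO groups overlapped broadly, and the KO value at day 7 leaned on d7_KO_420, without which the log2 fold change was 0.12. Cyp3a13, the main Cyp3a gene here, rose in WT cells from 86.9 ± 30.8 CPM (SD, n = 7) to 152 ± 38.3 CPM (SD, n = 7), with a log2 fold change of 0.78 ± 0.21 (SE) and an edgeR adjusted p of 0.0158. Its KO means were 80.4 ± 17 CPM (SD, n = 8) and 102 ± 41.8 CPM (SD, n = 7), with an edgeR adjusted p of 0.39. Cyp3a25 was at means of 0.82 CPM in WT and 0.724 CPM in KO cells at day 3, and its log2 fold change was 1.31 ± 0.38 (SE) in WT (edgeR adjusted p = 0.0254; at most 0.0622 without d3_WT_353, d7_WT_419 or d3_WT_487) and 1.65 ± 0.60 (SE) in KO cells (edgeR adjusted p = 0.0675; 0.0353 without d7_KO_368). In the fit of all 38 libraries the Cyp3a25 call moved to the other genotype (edgeR adjusted p = 0.119 in WT and 0.0397 in KO cells), and in KO cells it also passed with DESeq2 (adjusted p = 0.0227). Ugt2b35 fell by 0.55 on the log2 scale in WT cells (edgeR adjusted p = 0.0102), and in KO cells its edgeR adjusted p was 0.108 with and 0.0361 without the library labelled d3_KO_345. Ugt2b5 rose by 0.44 and Sult1c2 fell by 0.51 on the log2 scale in KO cells (edgeR adjusted p = 0.0169 and 0.0195), and neither passed under scaling to 10 epithelium genes (0.0796 and 0.0591).

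Whether the day 3 to day 7 change differed between genotypes was tested by an interaction term over the 29 DSS libraries. None of 60 members passed with edgeR and none with DESeq2, beside 0% of all 16371 genes with edgeR. An unadjusted p under 0.05 was found for 2 members, beside 440 of all genes. The 2 members with the lowest p were Cyp2d12, whose change was lower in KO than in WT cells by 1.98 ± 0.55 (SE) on the log2 scale, and Cyp2f2, lower by 2.09 ± 0.64 (SE); both had an edgeR adjusted p of 0.9999. Without the library labelled d3_KO_345 these differences were -2.12 and -2.22.

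Several abundant members did not pass in either genotype between day 3 and day 7. Cyp2c55 was at 1427, 1796 and 2804 CPM in WT cells at day 3 and at 566, 2022 and 2677 CPM at day 7. In KO cells it was at 1151, 1710 and 2229 CPM and then at 715, 1693 and 2937 CPM. The groups overlapped, with d7_WT_356, d7_WT_361, d7_KO_367 and d7_KO_368 below the day 3 range of their genotype, and the log2 fold change was -0.11 ± 0.30 (SE) in WT and -0.09 ± 0.27 (SE) in KO cells. Ugt2b34, a glucuronosyltransferase, had group means between 492.5 and 585 CPM in all 6 groups. Sult1d1, which in mice sulfates catecholamines, had WT means of 439 ± 142 CPM (SD, n = 7) at day 3 and 527 ± 131 CPM (SD, n = 7) at day 7. Gsto1, Gstp1, Gstm1, Sult1a1 and Sult1b1 also did not pass. In summed CPM, Cyp2 members ran from 1743 to 3788 CPM at day 3 and from 1340 to 3924 CPM at day 7 over both genotypes, with Cyp2c55 the largest part in every group.

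**Figure D3:**
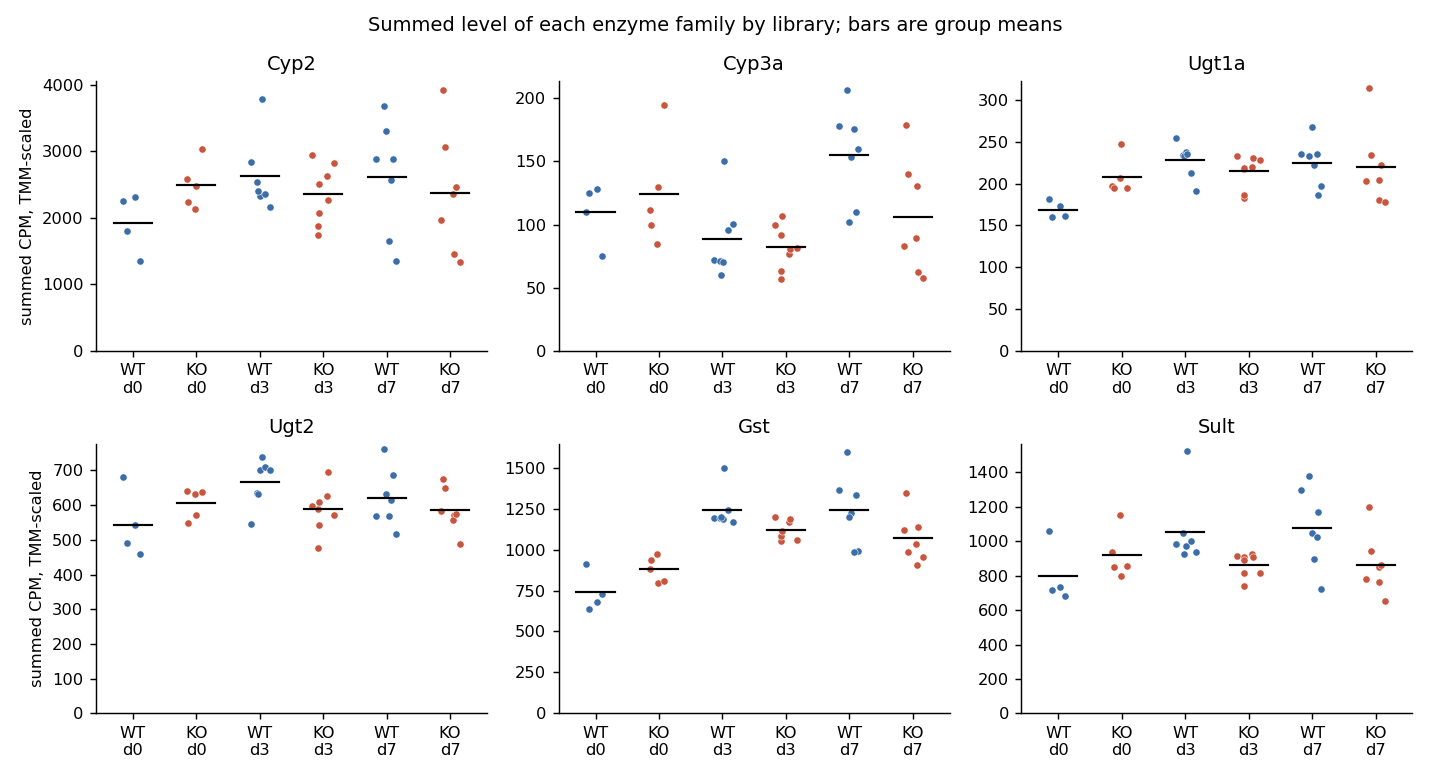
Summed TMM-scaled CPM of each enzyme family in each library (WT blue, KO red), with bars at group means and axes from 0. The summed levels of the 6 families at days 3 and 7 overlapped between genotypes and between days; mean Gst sums were 739 and 879 CPM at day 0 and 1068 to 1241 CPM later.

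Other cell types moved with day. Between day 3 and day 7, 8 of 8 neutrophil and monocyte markers passed as higher in both genotypes. Their summed level went from 35.3 to 44.2 CPM up to 158 to 1082 CPM in WT cells and from 33.0 to 168.5 CPM (the highest being the library labelled d3_KO_345) up to 110 to 1611 CPM in KO cells, with none of the 8 at 0. Of 7 goblet cell markers, 1 fell in WT and 4 in KO cells. Their sum went from a range of 8906 to 14700 CPM to 6795 to 11120 CPM in WT and from 9367 to 19760 CPM to 6068 to 10440 CPM in KO cells. Of the T and NK cell markers 3 of 8 rose in WT and 8 of 8 in KO cells, and of the B and plasma cell markers 5 of 5 tested rose in WT and 3 of 5 in KO cells. None of 10 epithelial markers passed in WT cells and 1 fell in KO cells. Of 6 stem and cycling cell markers 0 passed in either genotype, with median log2 fold changes of -1.22 in WT and -0.54 in KO cells. Their sum went from 299.6 to 411 CPM to 194.7 to 390.4 CPM in WT cells. In KO cells it went from 220.8 to 422.7 CPM to 109.3 to 349.5 CPM. Of 8 absorptive colonocyte markers, Slc26a3 fell in both genotypes, Aqp8 fell in KO and Ceacam20 rose in WT cells. Of 6 hepatocyte markers 4 were tested: Alb and Ttr fell in both genotypes, Cps1 fell in WT cells and Tat rose in both (median log2 fold change over the 4 genes -2.07 in WT and -1.67 in KO cells). The hepatocyte markers summed to 52.3 to 73.2 CPM at day 3 and 47.6 to 161 CPM at day 7 in WT and to 41.9 to 72.9 CPM and 45.5 to 101 CPM in KO cells, with Serpina1a at 0 in all 29 of these libraries. Of 9 tested small-intestine markers, 4 rose in WT and none in KO cells, and the Paneth cell defensin Defa24 was at 0 in every DSS library. The part of these shifts in the changes of the members was not tested. In bulk samples fewer cells of a type and less RNA per cell cannot be told apart.

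Comparing the genotypes within a day, no member passed. At day 0, 0 of 59 tested members passed with edgeR, beside 0.0335% of all genes (0.0201% higher, 0.0134% lower). An unadjusted p under 0.05 was found for 15 members, beside 1563 of all 14944 genes. DESeq2, which tested another set of genes, passed 5 members, beside 1.2% of its genes. At day 3, 0 of 58 passed with edgeR and 0 with DESeq2, beside 0.00647% of all genes with edgeR. This was also 0 without the library labelled d3_KO_345. Unadjusted, 11 members passed, beside 1218 of all 15461 genes. At day 7, 0 of 57 passed with edgeR, beside 0.00642%, and 2 members with DESeq2, beside 0.621% of its genes. Unadjusted, 12 members passed, beside 2017 of all 15584 genes. Over all days together, 0 of 69 passed with edgeR, beside 0.0209%, and 1 member with DESeq2, beside 0.0854% of its genes. Unadjusted, 10 members passed, beside 2257 of all 19144 genes. The members' median log2 fold change, KO against WT, was 0.14 at day 0, -0.16 at day 3 and -0.17 at day 7, while that of all genes tested was -0.0030, -0.0045 and -0.0048. On the sign alone, 41 of 59 members were on the higher side at day 0 and 47 of 58 and 47 of 57 on the lower side at days 3 and 7. The members share the same libraries, so these signs are not independent, and the signs over all genes were not counted. A shift of the members as a set was not tested.

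The members with the lowest p at day 0 were Cyp2c65, Ugt2b5 and Ugt1a1. Cyp2c65 was at 70.2, 98.7, 110 and 124 CPM in the 4 WT libraries and at 149, 165, 172, 176 and 177 CPM in the 5 KO libraries (log2 fold change 0.72 ± 0.15 SE, edgeR adjusted p = 0.163, DESeq2 adjusted p = 0.00113). Ugt2b5 was at 9.35, 12.2, 15.3 and 19.1 CPM in WT and at 23.1, 24.3, 24.8, 30.6 and 36.1 CPM in KO cells (log2 fold change 0.97 ± 0.20 SE, edgeR adjusted p = 0.163, DESeq2 adjusted p = 0.0014). Ugt1a1 was at 6.23, 11.6, 13.2 and 13.6 CPM in WT and at 14.4, 19.2, 21.3, 21.4 and 26.3 CPM in KO cells (log2 fold change 0.85 ± 0.22 SE, edgeR adjusted p = 0.245, DESeq2 adjusted p = 0.0213). On the TMM scale all KO libraries lay above all WT ones for these 3 genes, and at day 3 and day 7 the genotypes overlapped for each. The KO library d0_KO_32 has a TMM factor of 0.487. With counts taken relative to library totals alone, it lay within the WT range for each of the 3 genes. The genes were picked for their low p, and how many of all genes separate in this way was not counted. Whether a call is made at day 0 rests on the tool and on single libraries: without d0_WT_31, 4 members passed with edgeR (Gsta4, Gstk1, Gstp1 and Ugt2b5). Small-intestine markers, a sign of tissue other than colon, ran from 125 to 276 CPM in the WT and 164 to 632 CPM in the KO libraries of day 0; with their level as a covariate 0 members passed, and with Xist as a covariate 5 did.

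At day 3 the lowest p among the members named by the rule belonged to Gstt1, Sult1a1 and Gstm1, with log2 fold changes of -0.36 ± 0.11, -0.43 ± 0.14 and -0.29 ± 0.12 (SE), each with an edgeR adjusted p of 0.623. Without the library labelled d3_KO_345 they were -0.31, -0.35 and -0.23. The WT and KO libraries overlapped for each of these genes. At day 7 the lowest belonged to Cyp2f2, Cyp2d12 and Cyp2c69, 3 of the genes that fell from day 3. Mean Cyp2f2 was 0.367 ± 0.0963 CPM (SD, n = 7) in KO and 2.04 ± 1.5 CPM (SD, n = 7) in WT cells, a log2 difference of -2.46 (-3.46 to -1.46, the 95% interval; edgeR adjusted p = 0.291, DESeq2 adjusted p = 0.00108). Mean Cyp2d12 was 1.61 ± 0.822 CPM (SD, n = 7) and 5.46 ± 3.51 CPM (SD, n = 7), a log2 difference of -1.77 (-2.58 to -0.95; edgeR adjusted p = 0.291, DESeq2 adjusted p = 0.00744). Mean Cyp2c69 was 0.537 ± 0.209 CPM (SD, n = 7) and 1.88 ± 1.77 CPM (SD, n = 7), and mean Cyp2c68 7.53 ± 2.66 CPM (SD, n = 7) and 18.7 ± 14.96 CPM (SD, n = 7), with log2 differences of -1.80 ± 0.57 and -1.32 ± 0.47 (SE; edgeR adjusted p = 0.291 and 0.318). The 95% intervals are normal approximations from the SE, and they are not adjusted for picking these genes by their low p. The groups overlapped for all 4 genes. For Cyp2d12, 5 of the 7 KO libraries lay below every WT library, for Cyp2c69 1 did and for Cyp2f2 and Cyp2c68 none did, and d7_WT_419 lay within or below the KO range of each gene. Without d7_WT_419 Cyp2f2 passed with edgeR (adjusted p = 0.0473).

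Against day 0, counts of higher and lower members turned on how libraries were scaled, and library series cannot be told apart from day. Xist was above 1 CPM in 2 of 4 WT and 1 of 5 KO libraries of day 0, while the DSS mice were all males. Sex, and possibly age, was therefore not matched between day 0 and the later days, and its part in these comparisons was not tested. With TMM scaling, 39 of 64 members passed between day 0 and day 3 in WT cells (30 higher, 9 lower; 46% of all genes, 20.4% higher and 25.6% lower) and 24 of 62 in KO cells (14 higher, 10 lower; 46.3% of all genes, 22.6% higher and 23.7% lower); without the library labelled d3_KO_345 the KO count was 21 (13 higher, 8 lower). With scaling to 10 epithelium genes they were 16 higher and 16 lower in WT and 1 higher and 29 lower in KO cells. Of all genes 44.4% passed on that scale in WT (6.26% as higher) and 61.5% in KO cells (4.98% as higher), and their median shifted by -0.33 and -0.45. Between day 0 and day 7, 33 of 64 passed in WT (20 higher, 13 lower; 56.9% of all genes, 27.8% higher and 29.2% lower) and 30 of 60 in KO cells (10 higher, 20 lower; 54.6% of all genes, 27.3% higher and 27.3% lower) with TMM, and 13 higher and 23 lower and 5 higher and 33 lower with the epithelium scaling. There 56.9% of all genes passed in WT (12.2% as higher) and 61.2% in KO cells (10.3% as higher), and the medians shifted by -0.38 and -0.43. The day 3 and day 7 comparisons of a genotype share its day 0 libraries.

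Most Gst genes were higher at day 3 than at day 0 in WT cells on the TMM scale, and fewer were on the epithelium scale. With TMM scaling 16 of 18 tested Gst members were higher at day 3 in WT and 9 of 18 in KO cells, and none was lower. Of all genes 20.4% were higher in WT and 22.6% in KO cells. With the epithelium scaling 10 were higher and 1 lower in WT, and none higher and 5 lower in KO cells. On that scale 6.26% of all genes were higher and 38.1% lower in WT, and 4.98% higher and 56.5% lower in KO cells. Whether changes against day 0 differ between the genotypes was not tested, and these counts do not show it. Gsto2 had a negative WT value with both scalings, -0.48 with TMM (edgeR adjusted p = 0.168) and -0.82 with the epithelium scaling (edgeR adjusted p = 0.0469). Cell markers also differed between day 0 and day 3. Of 10 epithelial markers 4 rose in WT and 6 in KO cells (median log2 fold change 0.40 and 0.41). Of 6 stem and cycling cell markers 4 fell in WT and 3 in KO cells, and 2 of 10 tested small-intestine markers fell in WT and 8 of 10 in KO cells. Stem and cycling cell markers summed to 426.5 to 665 CPM in WT and 472.5 to 672 CPM in KO cells at day 0, and to 299.6 to 411 CPM and 221 to 422.7 CPM at day 3. Small-intestine markers summed to 80.4 to 174 CPM in WT and 85.4 to 205 CPM in KO cells at day 3, with their day 0 levels given above. The part of these shifts in the Gst values was not tested. Gstp1, the pi-class transferase, was at 70.0, 70.6, 76.6 and 97.2 CPM in WT cells at day 0, at 136, 164 and 239 CPM at day 3 and at 117, 180 and 203 CPM at day 7. The WT log2 fold change from day 0 to day 3 was 1.12 ± 0.16 (SE, edgeR adjusted p = 6.42e-05) and stayed past the threshold under the epithelium scaling (0.79). In KO cells Gstp1 was at 96.9, 101, 102, 109 and 110 CPM at day 0 and at 126, 161 and 182 CPM at day 3 (log2 fold change 0.61 ± 0.08 SE, edgeR adjusted p = 3.11e-05). Under the epithelium scaling the KO change was 0.15 and did not pass (adjusted p = 0.196). No day 3 library overlapped day 0 in either genotype on the TMM scale. Gstm1, of the mu class, had the same outcome, with log2 fold changes of 1.16 ± 0.14 (SE) in WT and 0.72 ± 0.14 (SE) in KO cells, the latter at 0.29 and not passing under the epithelium scaling (adjusted p = 0.179). Gsta1 rose by 1.21 ± 0.32 (SE) in WT cells; its KO value of 0.99 ± 0.35 (SE) had an edgeR adjusted p of 0.0309 with and 0.0537 without the library labelled d3_KO_345, and it did not pass under the epithelium scaling (0.49, adjusted p = 0.161).

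**Figure D4:**
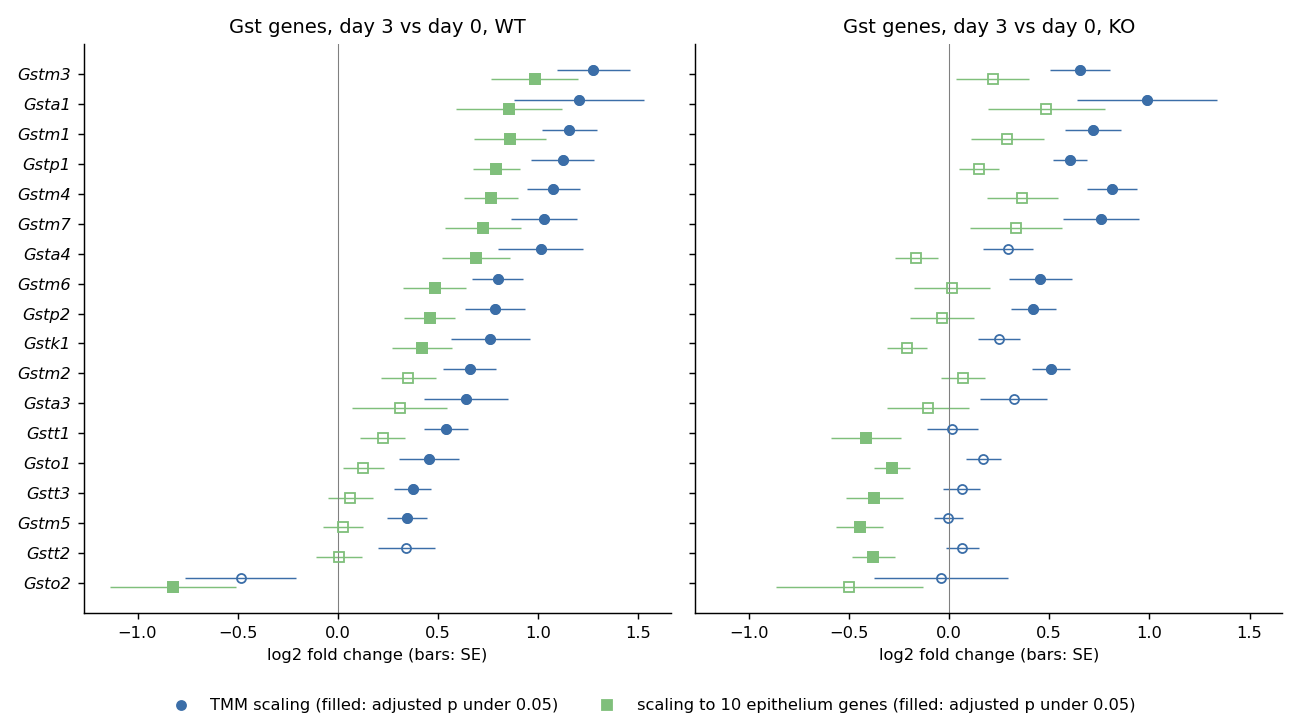
Log2 fold change of the 18 tested Gst genes between day 0 and day 3 in WT (left) and KO (right) cells, with SE bars, under TMM scaling (circles) and scaling to 10 epithelium genes (squares); filled symbols passed an adjusted p of 0.05. The epithelium scaling moves all points to the left, and in KO cells it leaves 5 genes lower and none higher.

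Cyp2c66 and Cyp2d34 passed in the same direction against day 0 in both genotypes, at both days and with either scaling. Among the Gst genes, Gsta1, Gstp1, Gstm1, Gstm4 and Gsto2 also kept their direction throughout, but none of them passed every time. Cyp2c66 was at 0, 0.0725, 0.8 and 0.944 CPM in WT and at 0.469, 0.794, 1.27, 1.37 and 1.54 CPM in KO cells at day 0, below every DSS library of its genotype, and its log2 fold change to day 7 was 4.71 ± 0.63 (SE) in WT and 3.22 ± 0.34 (SE) in KO cells (edgeR adjusted p = 3.78e-05 and 3.95e-06). Its KO change from day 0 to day 3 was 1.37 with TMM and 0.89 with the epithelium scaling. Cyp2d34 fell, from a mean of 196 ± 44.0 CPM (SD, n = 4) at day 0 to 109 ± 24.9 CPM (SD, n = 7) at day 3 and 115 ± 25.5 CPM (SD, n = 7) at day 7 in WT cells, log2 fold changes of -0.85 ± 0.18 and -0.80 ± 0.18 (SE). In KO cells its log2 fold change to day 3 was -0.60 ± 0.23 (SE), with an edgeR adjusted p of 0.0458. It was 0.0697 when the library labelled d3_KO_345 was left out and 0.206 without d0_KO_60, and 9 single libraries each ended the call. Ugt1a2, Ugt1a5 and Ugt1a6b, chosen after their values were seen, were found almost only at day 0. Ugt1a5 was at 0.788, 3.59, 3.97 and 4.06 CPM in WT and 1.17, 1.54, 1.98, 4.20 and 5.55 CPM in KO cells at day 0, and at 0.177 CPM or less in all 29 DSS libraries, where it had 0 to 8 counts.

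Genes that act before, beside and after these enzymes were followed in 5 lists. Of all genes tested, 10.6% rose and 8.7% fell from day 3 to day 7 in WT cells, and 10.5% and 8.83% in KO cells. Several of the counts below are near or below those shares, and none is read as particular to its list. Between the genotypes none of their tested members passed at any day with edgeR. Of 15 regulators, 1 rose from day 3 to day 7 in WT and 6 rose and 1 fell in KO cells. Nr1h4, the bile acid receptor FXR, was the one in both, with means of 88.7 and 210 CPM in WT (log2 fold change 1.22 ± 0.15 SE, edgeR adjusted p = 9.46e-05) and 85.7 and 182 CPM in KO cells (log2 fold change 1.05 ± 0.17 SE, edgeR adjusted p = 0.000363). Nr1i3, the receptor CAR, was the 1 that fell, in KO cells, from 0.782 to 0.385 CPM. Only 2 of 5 aryl hydrocarbon receptor targets were tested, and neither passed. Of 26 tested other phase I enzymes, 1 rose and 6 fell in WT and 6 fell in KO cells. Adh1, an alcohol dehydrogenase, fell by 1.46 ± 0.33 (SE) in WT and by 2.25 ± 0.32 (SE) in KO cells on the log2 scale, and the flavin monooxygenases Fmo1, Fmo2 and Fmo4 and the monoamine oxidase Maob also fell in both. Of 18 tested genes for other conjugation and cofactor supply, 3 rose and 1 fell in WT and 3 rose and 2 fell in KO cells. Mgst1, a microsomal glutathione transferase, and Gusb, the lysosomal enzyme that removes glucuronic acid, rose in both. Papss1, which makes the sulfate donor, fell in both by 0.54 and 0.57 on the log2 scale, from means of 162 and 149 CPM at day 3. Papss2, which makes the same donor, was more abundant and passed as higher in KO cells only. Its means at day 3 and day 7 were 591 and 775 CPM in WT and 558 and 737 CPM in KO cells. Of 15 transporters 3 rose in WT and 4 rose and 2 fell in KO cells. Among them Slc51a and Slc51b, the subunits of the basolateral bile acid exporter, rose with log2 fold changes of 1.15 and 1.63 in WT and 1.2 and 1.38 in KO cells.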

How the data were processed

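RNA-seq was done on 38 libraries of isolated intestinal epithelial cells from WT and KO mice at days 0, 3 and 7 of DSS. The deposited values are unnormalized counts for each gene, in 2 lanes per library. Per the submitters' processing notes, reads were trimmed with Trim Galore and aligned with STAR to GRCm38. The file headers name featureCounts 1.6.2 and the notes 1.5.2; per the file headers, fragments were counted without regard to strand, although the labels' protocols give a stranded kit. Lanes were summed. Each comparison was fitted on the libraries of its groups with edgeR 4.0.16 (R 4.3.3; TMM, filterByExpr, quasi-likelihood F test), with Benjamini-Hochberg adjustment over all genes tested and a threshold of 0.05. SE is the absolute log2 fold change divided by the square root of F. The interaction was fitted over days 3 and 7, and the genotype difference over all days with day as a term. Totals of 10503352 to 60644284 counts per library put a floor of 3 counts at 0.0495 to 0.286 CPM, for counting error only. Each library is labelled with its own animal number, and p-values measure the spread between these libraries. The fits were tested on simulated data.

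Alternatives were DESeq2 1.42.0, its size factors in edgeR, scaling to 10 epithelium genes, no low-count filter, a mean of at least 1 CPM, all 38 libraries in 1 fit, 2 covariates at day 0, and leaving out each library. Members with values are those named by a rule: the 4 highest of a family per kilobase with a mean of at least 1 CPM, members called in a genotype comparison, and those with the largest changes called in both genotypes (6 each way between days 3 and 7, 3 each way against day 0, with a mean of at least 1 CPM). The members, the lists and the rule were chosen with earlier results of these data known. RefSeq promoters (GRCm38.p6) were matched by symbol. Per the file headers no option to count read pairs over several genes was set. Of the member rows, 2 lie on a patch scaffold and have no counts.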

Additional observations from a re-analysis of the deposited data

Results flagged for a closer look

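In each group of 4 to 8 libraries, a library far from the others by Dixon's criterion was marked for the 31 members named by the rule. Of 186 pairs of a gene and a group, 26 (13.98%) had such a library, and they came from 10 libraries. The criterion's rate of about 1 in 20 holds for independent, normally distributed values. The pairs here share libraries, so the 13.98% cannot be set against that rate. The TMM factor was 0.682 for d3_WT_381, 0.862 for d7_KO_420 and 0.487 for d0_KO_32, which raises every CPM of these libraries. The part of these factors in the flags was not tested, and no other explanation was.

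The WT library d3_WT_381 was the high one for 9 genes at day 3: Cyp2c65 (389 CPM; next 182), Gsto1 (515; 395), Cyp2j6 (140.3; 86.7), Ugt2b36 (8.11; 4.57), Ugt2b5 (60.5; 33.0), Sult1b1 (310.2; 170.3), Sult1d1 (757; 418), Gstk1 (111; 74.2) and Gsta1 (25.7; 10.4). Without it 26 members passed between day 3 and day 7 in WT cells (12 higher, 14 lower), beside 22 with it. For Gsto1 it had 9393 of 26743715 counts, and d3_WT_346 had 17520 of 47091135. Before TMM scaling d3_WT_381 was therefore not the highest library for Gsto1. The KO library d7_KO_420 was the high one for 7 genes at day 7: Ugt1a1 (68.9 CPM; next 34.7), Gstp1 (223.8; 158.8), Cyp2c66 (20.6; 11.7), Gsto1 (518; 375), Sult1d1 (709; 415), Cyp3a25 (8.25; 3.12) and Gsta1 (76.3; 25.7). It also had the highest colonocyte marker sum (15590 CPM) and the highest neutrophil and monocyte marker sum (1611 CPM) of its group.

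Among WT libraries of day 0, d0_WT_31 was high for Sult1b1 (199 CPM; next 152) and Sult1a1 (407; 257), and d0_WT_41 low for Cyp2f2 (5.48; 9.00). At day 3, d3_WT_346 was low for Cyp2c69 (2.14 CPM; next 7.66) and Ugt2b35 (25.4; 40.2), and d3_WT_486 high for Cyp2d12 (30.5; 17.1). The library labelled d3_KO_345, whose Hk2 level goes against its label, was low for Cyp2d22 (8.13 CPM; next 15.5). Single cases were Sult1c2 in d0_KO_32 (59.9 CPM; next 48.3), Ugt2b35 in d7_WT_386 (37.6; 29.7) and Ugt1a6a in d7_KO_422 (11.2; 8.33).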

How the results depend on the processing

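Between day 3 and day 7 the counts of members that passed stayed within 1.5 times of those reported under all 6 alternatives, and leaving out 1 library gave 18 to 27 in WT and 19 to 25 in KO cells. Of the 17 members that passed in both genotypes, 12 passed under every alternative run and with every library left out; Gstt3, Gsto2, Cyp2r1, Cyp2d22 and, in WT cells, Cyp2c65 did not. The log2 fold change of Cyp2c55 changed sign when d7_WT_356 or d7_WT_361 (-0.24 to 0.045 over left-out libraries) or d7_KO_367 or d7_KO_368 (-0.28 to 0.0414) was left out. The genotype comparison at day 0 went from 0 members to 5 with DESeq2 (165 genes in all, 5 with edgeR), 2 without the filter (52 genes) and 5 with Xist as a covariate (198 genes), and to 0 to 4 when 1 library was left out; 1 gene passed with the small-intestine covariate. At day 7 it went from 0 to 2 with DESeq2 (99 genes in all, 1 with edgeR) and 1 in the fit of all libraries (38 genes), and to 0 to 1 with 1 library left out. Over all days DESeq2 gave 1 member (21 genes, 4 with edgeR). Why the tools differ was not tested. At day 3 and for the interaction no alternative gave a member; the interaction and the fit over all days were repeated without the library labelled d3_KO_345 alone, with 0 members each. Against day 0, leaving out 1 library gave 31 to 43 (day 3, WT), 28 to 36 (day 7, WT), 16 to 30 (day 3, KO) and 27 to 34 (day 7, KO), and the epithelium scaling moved the balance of higher and lower calls as given above. Members under the floor of 3 counts cannot be ordered. No paired analysis was possible because every library has its own animal number and the groups share none.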
